A study of Drosophila melanogaster with 3 samples.

Results

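The dosage compensation genes examined here are the 5 protein-coding genes msl-1, msl-2, msl-3, mle and mof and the 2 non-coding RNA genes lncRNA:roX1 and lncRNA:roX2, chosen by symbol from the Ensembl annotation of the dm6 build, in which the chromosome arms carry 18277 genes. Every summit of CG16779-GFP ChIP-seq in one of these 7 genes or within 2 kb of it was collected from 5 peak lists. The material was whole Drosophila melanogaster prepupae of the CG16779-MiMIC line, in which an eGFP exon inserted in an intron makes a CG16779-GFP fusion from the gene's own locus, and the precipitation used an antibody against GFP. There was 1 group, with 3 biological replicates of that same line, no second genotype or treatment, pooled males and females in all of them, and no age beyond the stage. The lists were the authors' set filtered by the irreproducible discovery rate (IDR), a pooled list of all 3 replicates and 1 list for each replicate. The authors label the pooled list as peaks and background for input to IDR. It and each replicate list hold 30000 regions. A low-ranked region, called weak here, may therefore be background and is not by itself a sign of binding. Chromatin was sheared to fragments of 200 to 800 bp, which limits how finely a summit can be placed. The number of reads behind the lists is unknown, so a missing summit means only that the region was not listed.

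Dosage compensation in flies raises transcription of the single X chromosome of males. It is carried out by the male-specific lethal (MSL) complex, whose assembly is limited to males because females block the production of MSL-2. The complex is built on the X-linked roX RNAs, first loads at GA-rich entry sites on the X and acetylates histone H4 at lysine 16. Since both sexes were pooled here, signal from male and from female nuclei cannot be told apart.

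None of the 7 genes carried an IDR summit. The count was 0 of 7 in the gene or within 2 kb, where 24.4% of all annotated genes had one, and 0 of 7 within 500 bp of an annotated start, where 11.6% of all genes had one. The windows examined, which are the gene plus 2 kb on each side, ran from 5368 to 9922 bp at the 7 genes, and of the 7204 genes with windows in that range 22.5% had an IDR summit. With a share of this size, a count of 0 among 7 genes is a description of these genes and does not set them apart from others. No gene of the 7 had a summit among the 4805 top-ranked regions of any single replicate (the number of IDR peaks on the arms). The count with one in all 3 replicates was thus 0 of 7, where 15.0% of all genes had one. The share of all genes with one in any single replicate was not computed.

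Weak regions were listed at 3 of the 7 genes, msl-2, msl-3 and lncRNA:roX2, with 13 summits over the 5 lists. The pooled list, which holds 30000 regions, had a summit at 1 of the 7 genes, against 55.3% of all genes and 51.4% of genes with windows in the same range. Replicate 1 had summits at 2 of the 7 genes, replicate 2 at 3 and replicate 3 at 1, beside 60.0%, 60.6% and 54.6% of all genes. The remaining 4 genes, msl-1, mle, mof and lncRNA:roX1, had no summit in any list, as did 20.9% of all genes and 20.5% of those with windows in the same range. The strongest of the 13 summits ranked 9465 in its list and the weakest 28160. The 1 pooled summit, at msl-3 with rank 27108, fell well below the IDR set, which is made up of the top-scoring pooled regions. The other 12 ranks are from replicate lists, whose order differs from that of the pooled list. Those ranks therefore cannot be set against IDR ranks. At msl-2 and lncRNA:roX2, however, the pooled list, which contains the whole IDR set, had no summit in the gene or within 2 kb. Its nearest summits were 9465 and 11080 bp from these genes.

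**Figure D1:**
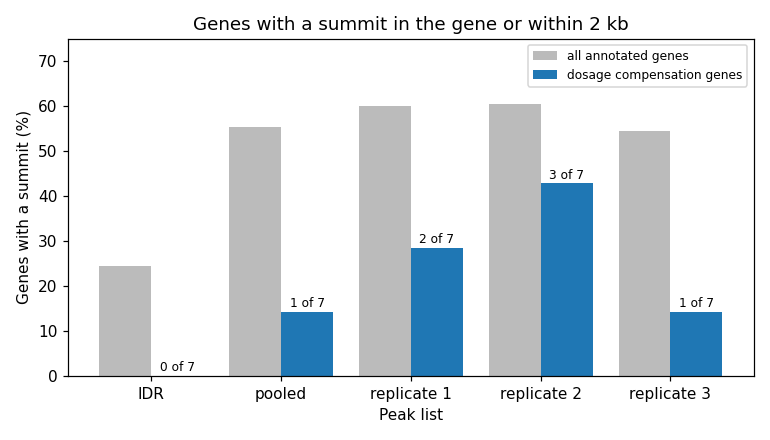
Share of genes with a summit in the gene or within 2 kb, in percent, for all 18277 annotated genes (grey) and for the 7 dosage compensation genes (blue), in each of the 5 peak lists. The counts above the blue bars run from 0 of 7 in the IDR set to 3 of 7 in replicate 2, and each blue bar is lower than the grey one beside it.

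lncRNA:roX2 (FBgn0019660, X from 11579065 to 11580432, plus strand) was the one gene of the 7 with overlapping regions in more than 1 replicate. roX2 is one of the paired non-coding RNAs of the complex and can substitute for roX1. In replicate 1 a summit lay at 11579092, 27 bp downstream of the annotated start, with rank 10458 and an authors' score of 37.8. In replicate 2 a summit lay at 11579151, 86 bp downstream of the start, with rank 22118 and a score of 18.1. The 2 summits were 59 bp apart and their regions overlapped by 363 bp, both in the exon of the RNA. Scores are on a separate scale in each list, and only the ranks can be read side by side.

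A second pair of regions lay at the 3' end of lncRNA:roX2. Replicate 2 had a summit at 11580238, 1173 bp downstream of the start and inside the gene, with rank 15521. Replicate 1 had one at 11580491, 59 bp past the end of the gene, with rank 12620. These summits were 253 bp apart, and the regions overlapped by 169 bp. The annotated start nearest to both belonged to nod, the gene of a kinesin-like motor protein, at 534 and 281 bp. Neither replicate 3 nor the pooled list had a summit within 2 kb of lncRNA:roX2, and the nearest ones were 18417 and 11080 bp from the gene. This pattern, with summits in replicates 1 and 2 and in none of the other lists, was found at 2 of the 7 genes, lncRNA:roX2 and msl-2, and at 6.69% of all genes. At msl-2 the regions of the replicates did not overlap. The share among genes on X alone was not computed. Replicate 3 had a summit at 36.7% of genes on X, against 57.9% of genes not on X.

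The sequences under the summits at both ends of roX2 are printed, with both replicates at the 3' end, where their summits were farther apart, and the strong IDR summit nearest to lncRNA:roX1 is printed for comparison. Each runs from 50 bases before the summit to 50 after it on the plus strand of the RefSeq Release 6 assembly (dm6). Capitals mark GAGAG or its reverse complement CTCTC, which of the stretches printed occur only in that of the replicate 2 summit at the roX2 3' end.
roX2 start, replicate 1, chrX:11579042-11579142: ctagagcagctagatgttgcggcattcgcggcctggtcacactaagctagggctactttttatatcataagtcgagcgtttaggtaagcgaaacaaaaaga
roX2 3' end, replicate 2, chrX:11580188-11580288: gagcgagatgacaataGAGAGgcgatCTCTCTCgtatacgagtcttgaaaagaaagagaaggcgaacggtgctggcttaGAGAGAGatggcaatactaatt
roX2 3' end, replicate 1, chrX:11580441-11580541: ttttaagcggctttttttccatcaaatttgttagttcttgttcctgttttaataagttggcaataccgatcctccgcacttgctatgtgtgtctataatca
IDR summit nearest roX1, chrX:3868588-3868688: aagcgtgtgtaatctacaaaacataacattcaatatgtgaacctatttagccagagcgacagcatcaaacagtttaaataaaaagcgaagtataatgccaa

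The replicate 2 summit at the roX2 3' end was the one place among the 13 summits with several GA words. Within 100 bp of the replicate 2 summit the word GAGAG occurred 5 times on either strand, the longer word GAGAGAGA, which contains it, occurred 2 times, and an alternating G and A run of 9 bases lay at 11580266 to 11580274. The overlapping replicate 1 region began at 11580279, past all the capitals printed, and its summit had no GAGAG word within 100 bp. Of the 13 summits 2 had GAGAG within 100 bp, this one and a replicate 2 summit near msl-2 with 1 match. All IDR peaks held the word within 100 bp in 33.5% of cases, and pooled regions outside the IDR set in 27.0%. In replicates 1, 2 and 3, whose lists gave 12 of the 13 summits, the shares were 28.8%, 28.4% and 26.3%. The 13 are not all separate places, since some of their regions overlap. The word GAGAGAGA was present at 1 of the 13 summits, at 5.31% of IDR peaks and at 3.42%, 3.50% and 2.40% of regions in replicates 1, 2 and 3. None of the 13 summits had CACACACA or TATCGATA, which were present at 8.16% and 0.832% of IDR peaks. These matches describe letters in fixed windows and not sites of binding.

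The other 2 genes on X, lncRNA:roX1 and mof, had no summit in their windows. lncRNA:roX1 (FBgn0019661, X from 3857230 to 3862697, minus strand) encodes the longer of the roX RNAs and has 3 annotated starts, at 3862697, 3862425 and 3862061. Its nearest IDR summit lay 5941 bp upstream, in an intron of yin, the gene of a peptide transporter, 307 bp from a start of yin. That summit was strong, with an IDR rank of 387 and replicate ranks of 498, 780 and 250, and had 2 GAGAG words within 100 bp, both outside the bases printed. Nearer summits came from weaker regions in the same gene, at 3775 bp in replicate 1 (rank 9173), 3642 bp in replicate 2 (rank 14847) and 4675 bp in the pooled list (rank 27710). The window of lncRNA:roX1 held 12 GAGAG words, 1.27 per kb, where the chromosome arms held 1.57 per kb, and its longest alternating G and A run was 7 bases.

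mof (FBgn0014340, X from 5873840 to 5876853, minus strand) encodes the histone acetyltransferase of the complex, which is also a subunit of the non-specific lethal (NSL) complex in both sexes. It had the nearest IDR summit of the 7 genes. This summit lay at 5880634, 3781 bp upstream of the mof start, in a 5' untranslated region of CG16721 and 100 bp from a start of that gene. Its IDR rank was 2000. Overlapping regions ranked 3197 and 2036 in replicates 1 and 2, while no region of replicate 3 overlapped it. Usp30, a deubiquitinase gene, lies between mof and this summit, 147 bp from mof. The summits nearest to mof were 3059 bp away in replicate 1, 43 bp from a CG16721 start, and 2792 bp away in replicate 2, 27 bp from a Usp30 start. In the 50 kb on each side of mof the IDR set held 13 summits, or 12.6 per 100 kb, against a mean of 3.67 on X.

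Replicate 3 listed few regions on X, the arm of 3 of the 7 genes. X held 18.0% of the regions of replicates 1 and 2 on the arms, and 9.87% of those of replicate 3. Within 50 kb of lncRNA:roX2 there were 34 summits in replicate 1, 34 in replicate 2 and 5 in replicate 3, and within 50 kb of lncRNA:roX1 there were 30, 31 and 7. In replicate 3 this came to 4.93 and 6.64 per 100 kb, below its mean of 12.6 on X. Replicates 1 and 2 had 33.5 and 33.5 per 100 kb at lncRNA:roX2. At lncRNA:roX1 they had 28.4 and 29.4, where the mean on X was 22.9 in both. Within 50 kb of mof there were 54, 44 and 26, and the replicate 3 density there, 25.2 per 100 kb, was above its mean of 12.6 on X. At X-linked genes as a whole 63.8%, 62.5% and 36.7% had a summit in replicates 1, 2 and 3. The part of this shortfall in the absence of replicate 3 regions at lncRNA:roX2 was not tested.

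**Figure D2:**
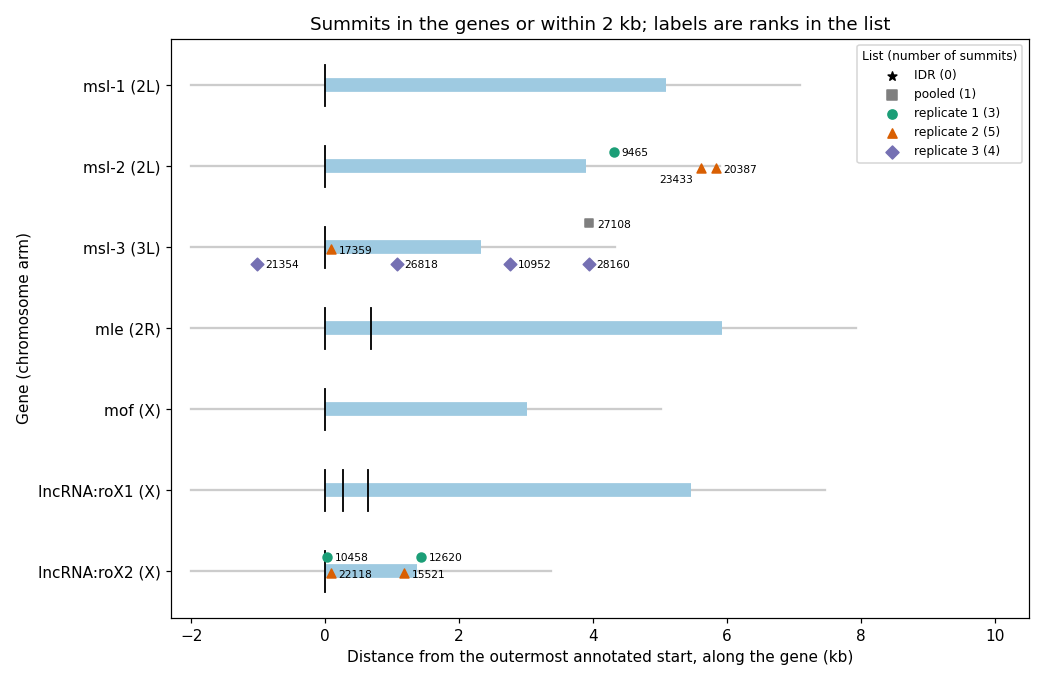
Summits at the 7 dosage compensation genes, drawn along each gene in kb from its outermost annotated start, with the gene as a blue bar, the 2 kb margins as grey lines, annotated starts as black ticks and the rank in the list beside each summit. msl-1, mle, mof and lncRNA:roX1 are empty, lncRNA:roX2 has summits of replicates 1 and 2 at both ends, and those of msl-3 come mainly from replicate 3.

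msl-3 (FBgn0002775, 3L from 7123213 to 7125533, minus strand) encodes the chromodomain subunit, which reads methylated lysine 36 of histone H3 on active genes. It was the one gene of the 7 with a summit in the pooled list, at 7121588, with rank 27108 of 30000 and a score of 44.2 where the lowest in the list was 40.9. This summit lay outside the gene, 1625 bp past its 3' end, in a coding exon of form3, a formin gene on the other strand, and 3945 bp from the msl-3 start. Replicate 3 had a summit 9 bp away, at 7121597, with rank 28160. The other replicate 3 summits were at 2764 bp and 1067 bp downstream of the start and 1015 bp upstream of it, with ranks 10952, 26818 and 21354, all in coding exons, of form3, msl-3 and BBS1 in that order. Replicate 2 had a single summit, 92 bp downstream of the start in the 5' untranslated region, with rank 17359, and replicate 1 had none. No summit of replicate 2 overlapped one of replicate 3.

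The pooled summit near msl-3 is printed from 50 bases before to 50 after it, on the plus strand of the RefSeq Release 6 assembly, since it is the single pooled region at these genes. It holds no GAGAG word.
msl-3 pooled summit, chr3L:7121538-7121638: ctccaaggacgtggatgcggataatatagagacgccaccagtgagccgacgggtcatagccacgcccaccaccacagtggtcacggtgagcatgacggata

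msl-2 (FBgn0005616, 2L from 3462218 to 3466112, minus strand) encodes the male-limited RING finger subunit, whose translation Sxl represses in females. All 3 of its listed summits lay past the 3' end of the gene and nearer to the start of CG3246 than to its own. Replicate 1 had the summit with the best rank of the 13, 9465, at 3461799. It was 419 bp past the end of msl-2 and 4313 bp from its start, but 153 bp from the start of CG3246, in a coding exon of that gene. Replicate 2 had summits at 3460500 and 3460277, with ranks 23433 and 20387, at 5612 and 5835 bp from the msl-2 start. The second of these fell in the 3' untranslated region of Sec5, an exocyst gene. Neither overlapped the replicate 1 region, and replicate 3 and the pooled list had none. At the msl-2 start itself no list held a summit within 500 bp. The nearest IDR summit was 12289 bp upstream, 33 bp from a start of Thor, the gene of the translation inhibitor 4E-BP, with rank 1814.

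msl-1 (FBgn0005617, 2L from 18683720 to 18688800, minus strand) encodes the scaffold of the complex and had no listed summit. Its nearest IDR summit lay 6764 bp upstream, 38 bp from a start of CG10383, with an IDR rank of 2536. Its region ranked 6081 and 4089 in replicates 1 and 2, without an overlapping region in replicate 3. The nearest regions of the single replicates were 5993, 4476 and 5372 bp from the gene, with ranks 10633, 15341 and 6817. The window of msl-1 held the longest alternating run of C and T, or G and A on the other strand, of the 7 windows, with 10 bases from 18686196 to 18686205, and no list had a region there.

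mle (FBgn0002774, 2R from 5974857 to 5980778, minus strand) encodes the helicase that remodels roX RNA for assembly. It lay farthest of the 7 from any IDR summit, 121754 bp, in an intron of the ecdysone receptor gene EcR with rank 3502. Of all genes on arms with IDR peaks, 3.44% were at least as far from one. Weak regions were scarce around it as well. Within 50 kb of the gene the IDR set had 0 summits, the pooled list 7 and replicates 1, 2 and 3 had 8, 8 and 11. In the pooled list this came to 6.61 per 100 kb, against a mean of 22.3 on the arm, and in the replicates to 7.55, 7.55 and 10.4 against 21.5, 22.5 and 22.9. The nearest summits in replicates 1, 2 and 3 were 13372, 18807 and 12161 bp from the gene.

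Ordered by distance to the nearest IDR summit, the genes were mof, lncRNA:roX1, msl-1, msl-3, msl-2, lncRNA:roX2 and mle, at 3781, 5941, 6764, 8744, 12289, 18599 and 121754 bp. Over 18046 genes the median distance was 9754 bp, with quartiles of 2082 and 25632 bp. So 4 of the 7 genes were nearer than the median gene, and mle was beyond the upper quartile. For lncRNA:roX2 the nearest IDR summit was in an intergenic stretch 1177 bp from a start of PGRP-SA, a peptidoglycan receptor gene, with rank 1117. For msl-3 it was 239 bp from a start of melt, with rank 759 and ranks 1066, 967 and 692 in the replicates.

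**Figure D3:**
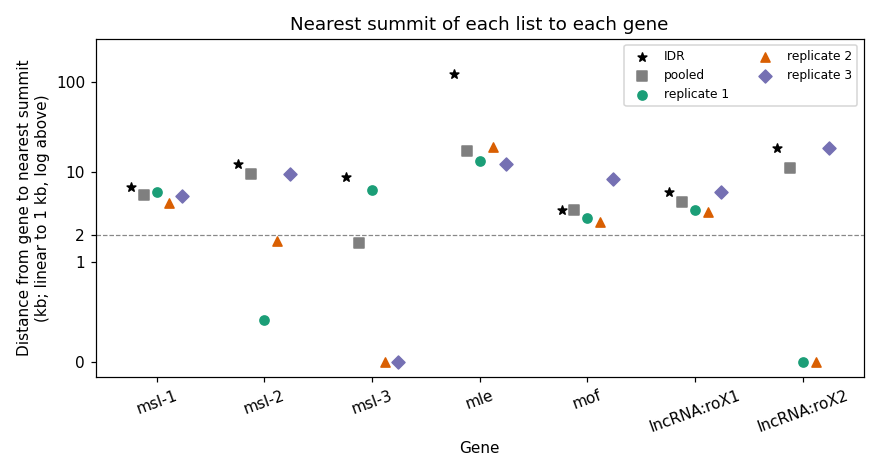
Distance in kb from each of the 7 genes to the nearest summit of each list, on an axis that is linear to 1 kb and logarithmic above; the dashed line is at 2 kb and 0 means inside the gene. All 7 IDR distances (stars) lie above the line, from 3781 bp at mof to 121754 bp at mle, and the points below it belong to msl-2, msl-3 and lncRNA:roX2.

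IDR summits were present at some of 22 genes related to dosage compensation, not all of which work with or control the complex. They are partners on the male X, genes for the control of msl-2 and of sex, NSL complex genes and regulators of the fourth chromosome. Of these 22 genes, 9 (40.9%) had an IDR summit in the gene or within 2 kb, against 24.4% of all genes. The 22 were chosen with earlier results of these data known, so their shares describe the list and are no test of it. An IDR summit within 500 bp of their own start was present at 4 of the 22, against 11.6% of all genes. The 9 had windows of 6238 to 47086 bp with a median of 15219, the 13 without had a median of 7424 and the 7 complex genes one of 7895, so length differed along with the counts and its part was not tested. Of 7 partners on the male X, 3 had an IDR summit. Nup153, a nuclear pore gene, had one with an IDR rank of 110 and replicate ranks of 44, 291 and 167, 782 bp from its nearest start. JIL-1, which encodes a histone H3 kinase enriched on the male X, had 3 summits, the strongest with rank 232 in an intron 7074 bp from a start. Top2 had one with rank 2950, but 255 bp from a start of CG10026. Clamp, whose product binds GA repeats and helps recruit the complex, had no summit in any list, nor did MBD-R2, dgt1 and Pof. These are 4 of the 22 genes, where 20.9% of all genes had no summit in any list, so the absence is not particular to them.

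Among genes for the control of msl-2 and of sex, 4 of 7 had an IDR summit, against 24.4% of all genes. Sxl, Unr, how and dsx had windows of 27504, 14060, 41131 and 47086 bp, where the median of all genes was 5646 bp. Unr, whose product represses msl-2 translation together with Sxl, had the best IDR rank of the 22 genes, 79, with replicate ranks of 41, 54 and 267, at 337 bp from its start and in a 5' untranslated region. Sxl, the switch gene of sex determination, had 3 summits with ranks 1366, 2844 and 3553, the weakest 127 bp from a start. dsx, the last gene of the sex determination cascade, had 3 and how, which encodes another regulator of msl-2 RNA, had 2. When the IDR set was replaced by regions shared between the 4805 top-ranked of 2 replicates, how had none under any choice of 2, nsl1 had none without replicate 2 or 3, and Top2 had none without replicate 1 or 2. The NSL complex had 2 of 6 genes, nsl1 with rank 3445 at 46 bp from its start and wds with 3 summits that were all nearest to a start of egh. Neither of the 2 genes for regulators of the fourth chromosome, Pof and egg, had one. At tra2, a splicing factor gene of the same cascade, a summit of rank 1351 was listed in replicate 1 and none in the other lists; it lay 185 bp from a start of CG12868.

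**Figure D4:**
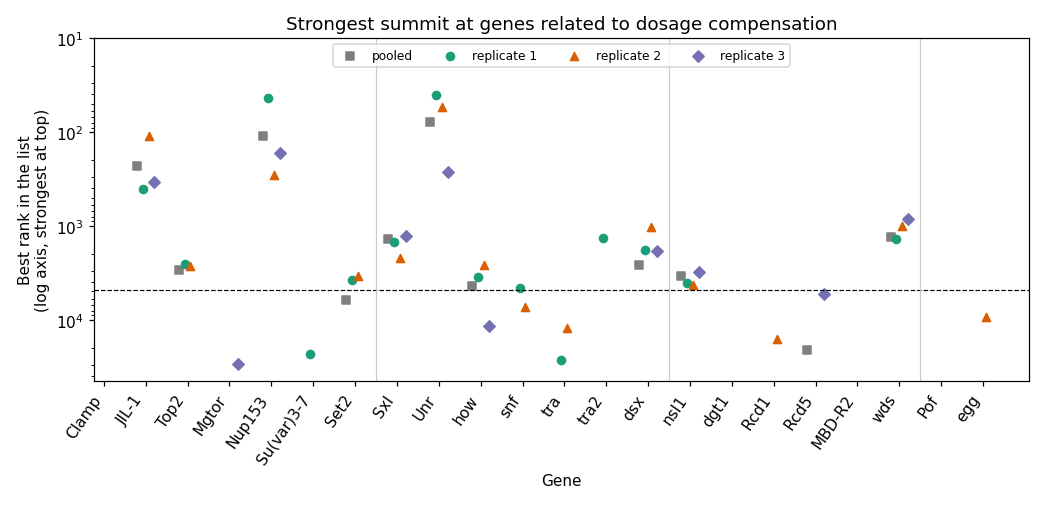
Best rank, on a log axis with the strongest regions at the top, of any summit in the gene or within 2 kb for 22 genes related to dosage compensation, in the pooled list and the 3 replicate lists; the dashed line marks rank 4805, and grey lines part the partners on X, the control of msl-2 and sex, the NSL complex and the fourth chromosome. Unr, Nup153 and JIL-1 stand at the top with pooled ranks of 79, 110 and 232, and Clamp, dgt1, MBD-R2 and Pof have no point.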

How the data were processed

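The 5 dm6 peak lists were used. Per the file listings, the authors made each replicate list from that replicate's alignments and 1 further input file, the pooled list from all 3 replicates and the IDR set from the 4 others. Not given in the sources used here: peak caller, aligner and threshold of the IDR step. The value used is the deposited peak score, on its own scale in each list, taken only to rank regions within a list. The 4822 top-scoring pooled regions make up the IDR set. The dm3 lists and control libraries were not analysed here.

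Summits (1-based) were placed on genes of Ensembl release 115, without transposable elements, by position, a step tested on simulated data. No region ran past the end of an arm. A single group allows no test over samples, so counts stand beside the share of all genes. The members and the related gene list were chosen with earlier results of these data known; Mgtor is the annotation's symbol for the gene listed as Mtor. By rule, the text names all members, related genes with an IDR summit, and genes over or nearest to an IDR or pooled summit; Clamp, dgt1, MBD-R2, Pof, egg, tra2 and genes near replicate summits were named after their values were seen. Genes of similar pattern are not given, since no member had summits in all lists. The msl-3 pooled sequence follows the rule; the other sequences were chosen after the values were seen, as were the 50 kb stretches. Alternatives were other margins, overlap rules, region sets, start sites and word windows, and leaving out each replicate. Python 3.11.15 with numpy 2.4.6, pandas 2.3.3 and matplotlib 3.10.9 was used.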

Additional observations from a re-analysis of the deposited data

How the results depend on the processing

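The count of 0 of 7 genes with an IDR summit was the same under 10 alternatives and became 1, at mof, with a margin of 5 kb. The counts of 0 at start sites and of 0 among the strongest regions of all 3 replicates were the same under 10 and 12 alternatives. Those included RefSeq starts and all 30000 regions. Many alternatives could not have raised these counts of 0. Narrower margins, start windows inside the 2 kb margin, 1 summit per interval and smaller region sets can only keep them. The RefSeq starts are the same positions as the Ensembl ones. Without replicates 1, 2 or 3 in turn, with regions shared by the other 2 in place of the IDR set, these 3 counts stayed at 0. The count of 9 related genes became 5 for IDR peaks above the median score, was 7 to 8 without 1 replicate, and 6 to 10 under the others. The genes changed too: how was lost without any 1 replicate, nsl1 without replicate 2 or 3 and Top2 without replicate 1 or 2, while Set2 entered without replicate 2 or 3. Summits with a GAGAG word numbered 1 of 13 with 50 bp on each side and 5 with 200 bp, against 2 with 100 bp; the shares of IDR peaks were 17.8%, 57.3% and 33.5%. The pooled rank at msl-3 was 27091 among regions of the arms, against 27108. No such rank could be given without a margin, or for the other 6 genes, which have no pooled summit. Read depth is unknown.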
